A study of Homo sapiens with 36 samples.

Results

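Interferon-stimulated genes are the genes that cells switch on in response to interferons. The set described here holds 47 listed symbols. All 47 matched 1 Ensembl gene each among the 74628 genes of the deposited count table. They were measured in Jurkat, an established line from a human T-cell leukaemia, carrying dCas9-VP64, a nuclease-dead Cas9 fused to a transcriptional activator, and that the labels give as mCherry+. Cells received a lentiviral pXPR vector that encoded 1 of 2 guide RNAs, sgRELA, which targets RELA, or sgControl, which is non-targeting per the labels, and all were then kept in puromycin for 3 days. RNA was taken on day 5, 6 or 7 after transduction from 3 biological replicates per guide and day, and each RNA sample gave 2 libraries by RamDA-seq, a full-length total RNA method, from 100 pg of RNA. Every group therefore carries the activator, a lentiviral vector and puromycin selection. The labels name no untransduced cells, no interferon treatment and no second guide against RELA, so an effect of the guide and an effect of RELA cannot be told apart. Each day is 1 time of harvest, and the day and its harvest cannot be told apart either.

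Type I interferons bind the receptor IFNAR1-IFNAR2, whose kinases JAK1 and TYK2 phosphorylate STAT proteins, STAT2 among them. STAT2 and IRF9 are subunits of the complex ISGF3, which binds the interferon-stimulated response element (ISRE) in promoters of antiviral genes. Interferon gamma acts through GAS elements, and RELA, a subunit of NF-kB, takes part in switching on IFNB1 and some interferon-stimulated genes such as IRF1. Many interferon-stimulated genes also have a basal level in unstimulated cells, kept in part by IRF proteins and unphosphorylated STATs.

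Promoter sequences are given first because the ISRE core is the feature that the name of the set points to. Windows of 300 bases, from 250 bases before to 50 bases after the start of transcription, were found in RefSeq (GRCh38.p14) for 39 of the 47 members. The ISRE core was searched on either strand as GAAA, any 2 bases, and GAAA again, and 26 of the 39 members (66.67%) held it in at least 1 window. Over all genes with a window, 1195 of 27305 (4.376%) held it. The GAS letters TTCNNNGAA, which read alike on both strands, stood in 12 of the 39 members (30.77%) and in 9.376% of all genes. Of 14 GAS matches in members' windows, 6 shared at least 1 base with an ISRE core. A kappa B motif, on either strand, stood in BST2, IFIH1, IFITM3, IRF1, OAS3 and XAF1, which is 6 of the 39 (15.38%) against 7.094% of all genes, and none of its matches shared a base with an ISRE core. A match is a description of the letters and not a measured binding site.

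The 6 stretches below run 5′ to 3′ on the strand of the gene, from 179 bases before the start of transcription through its first 21 bases, with the ISRE core in capitals on whichever strand it was found. EIF2AK2 and OAS3 are shown as members that rose by day 7, GBP1 as 1 that fell, IFIT3 as the expressed member with the largest fitted difference between the guides over all days, MX1 as the silent member, and STAT2 as a member that changed with the day and has no core in its window.
EIF2AK2, chr2:37156960-37157159, minus strand: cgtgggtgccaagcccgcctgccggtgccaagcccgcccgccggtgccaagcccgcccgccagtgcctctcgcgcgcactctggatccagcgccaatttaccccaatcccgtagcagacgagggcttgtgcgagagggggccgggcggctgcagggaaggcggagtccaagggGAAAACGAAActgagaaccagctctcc
OAS3, chr12:112938295-112938494, plus strand: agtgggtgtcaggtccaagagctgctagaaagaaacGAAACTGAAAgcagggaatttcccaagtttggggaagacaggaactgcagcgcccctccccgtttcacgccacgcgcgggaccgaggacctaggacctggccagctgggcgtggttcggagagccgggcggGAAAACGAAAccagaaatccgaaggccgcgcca
GBP1, chr1:89065188-89065387, minus strand: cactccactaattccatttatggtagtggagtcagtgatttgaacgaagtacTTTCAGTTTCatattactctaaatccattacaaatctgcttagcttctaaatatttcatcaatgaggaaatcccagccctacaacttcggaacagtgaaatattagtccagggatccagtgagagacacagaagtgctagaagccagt
IFIT3, chr10:89327818-89328017, plus strand: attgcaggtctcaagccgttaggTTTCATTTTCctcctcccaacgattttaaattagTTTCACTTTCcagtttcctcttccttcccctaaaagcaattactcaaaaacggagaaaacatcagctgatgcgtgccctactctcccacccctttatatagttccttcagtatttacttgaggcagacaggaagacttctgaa
MX1, chr21:41420379-41420578, plus strand: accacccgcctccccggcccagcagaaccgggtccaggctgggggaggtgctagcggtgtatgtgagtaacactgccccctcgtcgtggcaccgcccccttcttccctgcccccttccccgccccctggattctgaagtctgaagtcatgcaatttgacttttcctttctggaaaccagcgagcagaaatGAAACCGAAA
STAT2, chr12:56360087-56360286, minus strand: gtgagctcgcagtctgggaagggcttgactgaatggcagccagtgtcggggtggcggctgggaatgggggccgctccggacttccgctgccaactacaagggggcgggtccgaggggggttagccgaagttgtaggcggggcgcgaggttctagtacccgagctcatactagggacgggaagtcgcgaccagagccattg
In EIF2AK2 the core began 6 bases before the start, and in OAS3 the 2 cores began 143 and 12 bases before it. The GBP1 core began 127 bases before the start, and the IFIT3 cores began 156 and 122 bases before it, in the first of the RefSeq windows of IFIT3. In the first RefSeq window of MX1 the core began 11 bases after the start of transcription. A later window of MX1, not shown, held another core that began 196 bases before its start.

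Counts per library ran from 7586205 to 16124473, and the sum of the 2 libraries of an RNA sample from 18769530 to 29503934. Levels below are CPM, the counts of these sums scaled to a common library size with edgeR's TMM factors. RELA, the target of the guide, read 31.2, 39.3 and 29.3 CPM on day 5, 30.9, 20.2 and 20.7 on day 6 and 26.5, 25.3 and 22.4 on day 7 in sgControl, and 318, 263 and 299.7 CPM on day 5, 223, 187 and 194 on day 6 and 126, 136 and 119.8 on day 7 in sgRELA. The libraries labelled sgRELA were therefore all above those labelled sgControl on each day. The log2 fold changes were 3.14 ± 0.14 on day 5, 3.07 ± 0.14 on day 6 and 2.36 ± 0.14 on day 7. The value after ± on a log2 fold change is its standard error (SE). It was taken as the size of the log2 fold change divided by the square root of the F statistic of edgeR's test. Within sgRELA cells RELA fell from day 5 to day 7 by 1.21 on the log2 scale (adjusted p = 6.43e-08). All 13 T-lineage markers were tested, with a summed level of 4111 to 5552 CPM over the RNA samples. Lists of other cell types were mostly low, with single exceptions. Of 5 erythroid markers, HBB, HBA1 and HBA2 had no count in any library and the list summed to at most 0.759 CPM, and the 6 myeloid markers summed to 0.316 to 3.99 CPM. The 7 epithelial and stromal markers summed to 76.3 to 100.8 CPM, of which PECAM1 averaged 80.3 and COL1A1 6.04 CPM, while EPCAM had no count. The 3 plasmacytoid dendritic markers summed to 17.2 to 28.6 CPM, almost all TCF4 at 23.1 CPM, with CLEC4C and LILRA4 at or under 0.0111 CPM. The 5 NK-cell markers summed to 5.01 to 20.2 CPM, led by NCAM1 at 4.16 and NKG7 at 4.12 CPM. Of the B-cell markers, CD79A had group means of 17.9 to 21.2 CPM in sgControl and 54.6 to 57.6 CPM in sgRELA, while MS4A1, CD79B and PAX5 averaged at most 0.203 CPM each. The part of CD79A in any difference between the guides was not tested.

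To compare levels between genes, CPM were divided by the length of each gene's merged exons in GENCODE v29 (RPKM). ADAR, which edits adenosine in double-stranded RNA, led the set with a mean of 105.9 RPKM and ranged from 90.1 to 120.5 RPKM over the 18 RNA samples. STAT2, the interferon-specific subunit of ISGF3, followed with 24.5 RPKM, and then came DTX3L with 17.2, TRIM25 with 17.1, PARP14 with 14.8 and IFITM2 with 13.6 RPKM. DTX3L and TRIM25 do not differ beyond their spread, which was 3.13 and 2.63 RPKM (SD over 18 RNA samples). Several genes that are usually named first as interferon-stimulated sat far lower: ISG15, the ubiquitin-like modifier, had 1.72 RPKM, IFIT1 1.27, IFIT3 1.06, OAS1 0.720 and MX1 0.0127 RPKM. The median RPKM was 2.86 over the 26 members with an ISRE core in their window and 4.86 over the 13 without one. Of the 47 members, 43 had a mean of at least 1 CPM and are called expressed here, 3 were low and 1 was silent. Among the expressed members 6 exceeded 100 CPM on average and 18 lay between 1 and 10 CPM.

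**Figure D1:**
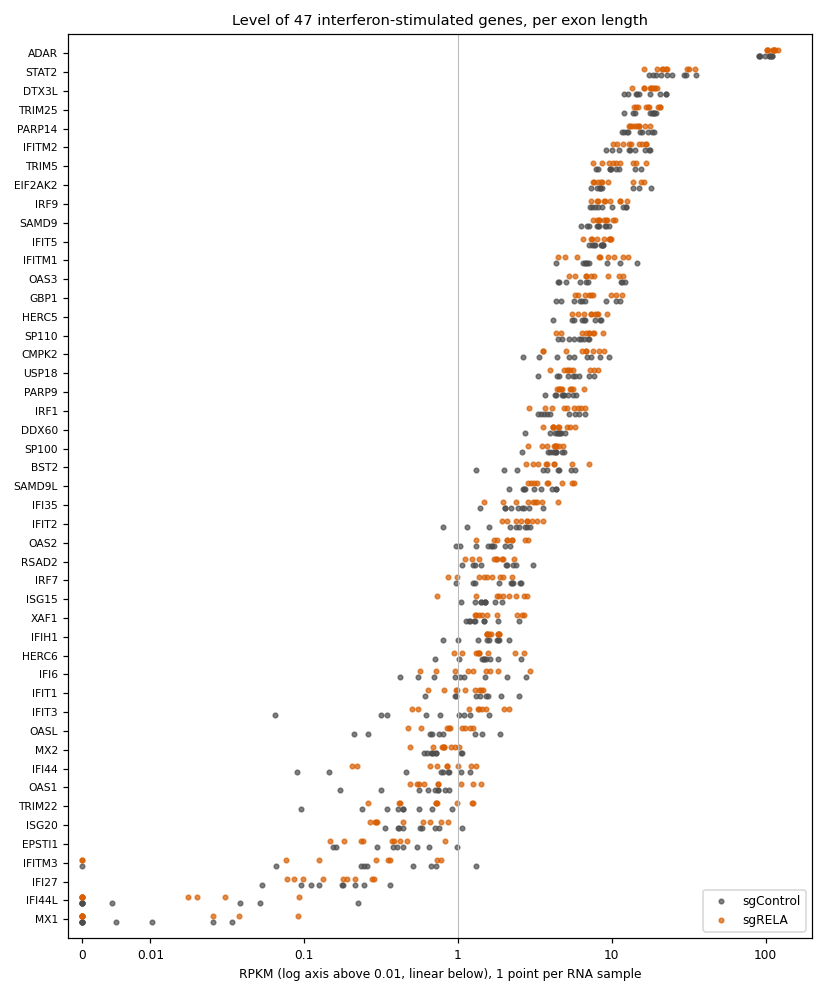
Level of each member in RPKM (horizontal, logarithmic above 0.01), 1 point per RNA sample, 9 for sgControl in grey and 9 for sgRELA in orange, genes ordered by mean. ADAR stands apart at 105.9 RPKM, 34 of the 43 expressed members lie between 1 and 20, and IFI44L and MX1 are at 0 in 10 and 11 of the 18 samples.

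The silent member was MX1, a dynamin-like GTPase that blocks influenza virus and is among the most widely used markers of an interferon response. It had 42 counts in all, in 8 of 36 libraries. These were 14 counts in 4 of 18 sgControl libraries and 28 counts in 4 of 18 sgRELA libraries. Of the sgRELA counts 15 came from 1 library on day 6. The 6 sgRELA libraries of day 5 held none, which allows a level of up to 0.0377 CPM in that group (3 counts over 79492065, counting error only). MX1 did not pass the filter on low counts and has no test.

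The 3 low members were tested, and none passed in any comparison. IFI44L, a gene of little-known function beside IFI44, had 114 counts in 9 of 36 libraries, of which 65 lay in 3 sgControl libraries of day 5. No sgControl library of day 7 held a count of IFI44L, which allows up to 0.0401 CPM there. IFITM3, a membrane protein that restricts virus entry, had 204 counts in 26 libraries, with 78 of its 120 sgControl counts and 55 of its 84 sgRELA counts on day 6. IFI27, a mitochondrial protein strongly induced by interferon alpha in blood, had 300 counts in 34 libraries. It split almost evenly, with 148 counts in sgControl and 152 in sgRELA.

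**Figure D2:**
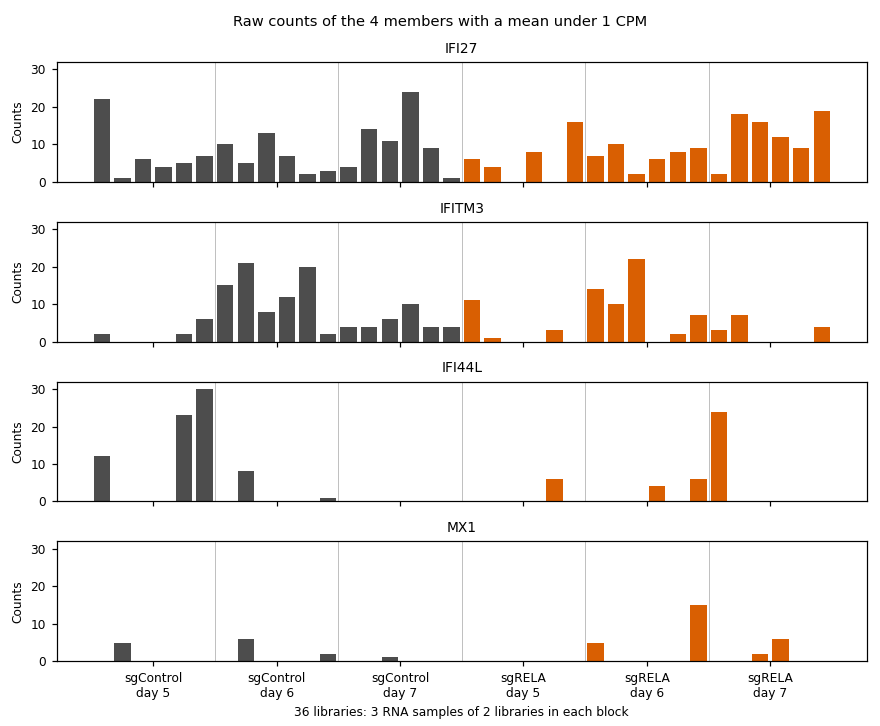
Raw counts (vertical) of IFI27, IFITM3, IFI44L and MX1 in each of the 36 libraries, 6 libraries per group, sgControl in grey and sgRELA in orange. MX1 and IFI44L have counts in 8 and 9 libraries, and no library exceeds 30 counts.

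The first question was whether members differed between the guides. None of the 46 tested members passed edgeR's quasi-likelihood test at an adjusted p under 0.05 on day 5, 6 or 7, where 0.138%, 0.214% and 0.0907% of the 27553 genes tested did. With counts added over the days, 0 of 46 passed against 0.363% of 28888 genes. At an unadjusted p under 0.05 there were 3 members on day 5 (5.96% of all genes), 5 on day 6 (6.07%), 7 on day 7 (4.68%) and 8 over all days (6.74%). DESeq2 called 1 member, DTX3L on day 5 (adjusted p = 0.0236), and 0 members on day 6, on day 7 and over all days. In the test of whether the guide difference changed with the day, 0 of 46 members and 0.00363% of all genes passed in edgeR, 3 members had an unadjusted p under 0.05 (4.69% of all genes), and DESeq2 called 0.

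Median fitted differences were small, and most members lay above 0. Over all days 34 of the 46 members were higher in sgRELA (all genes 49.6%), with a median log2 fold change of 0.09 against 0.00 for all genes tested. By level, 34 of the 43 expressed members were higher (49.8% of all genes at 1 CPM or more), with a median of 0.09. Of the 3 low members 0 were higher (49.2% of all genes under 1 CPM), with a median of -0.59. Single members ran from -3.63 to 0.76 on day 5, -0.55 to 1.12 on day 6 and -1.22 to 5.92 on day 7. On the single days 32, 34 and 28 of 46 were higher (all genes 49.6%, 49.5% and 49.7%), with medians of 0.09, 0.13 and 0.08. The sign was positive on all 3 days for 14 members (30.4%, all genes 13.6%) and negative on all 3 for 2 members (4.35%, all genes 13.9%). The 14 were ADAR, DDX60, GBP1, HERC5, IFI35, IFIT2, ISG15, OAS2, PARP9, SAMD9, SAMD9L, SP110, TRIM22 and XAF1, and the 2 were EPSTI1 and IRF7. These shares describe the list, whose members were measured in the same samples. The SE of the difference over all days had a median of 0.05 for the 6 members above 100 CPM, 0.08 for the 19 at 10 to 100 CPM and 0.21 for the 18 at 1 to 10 CPM.

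**Figure D3:**
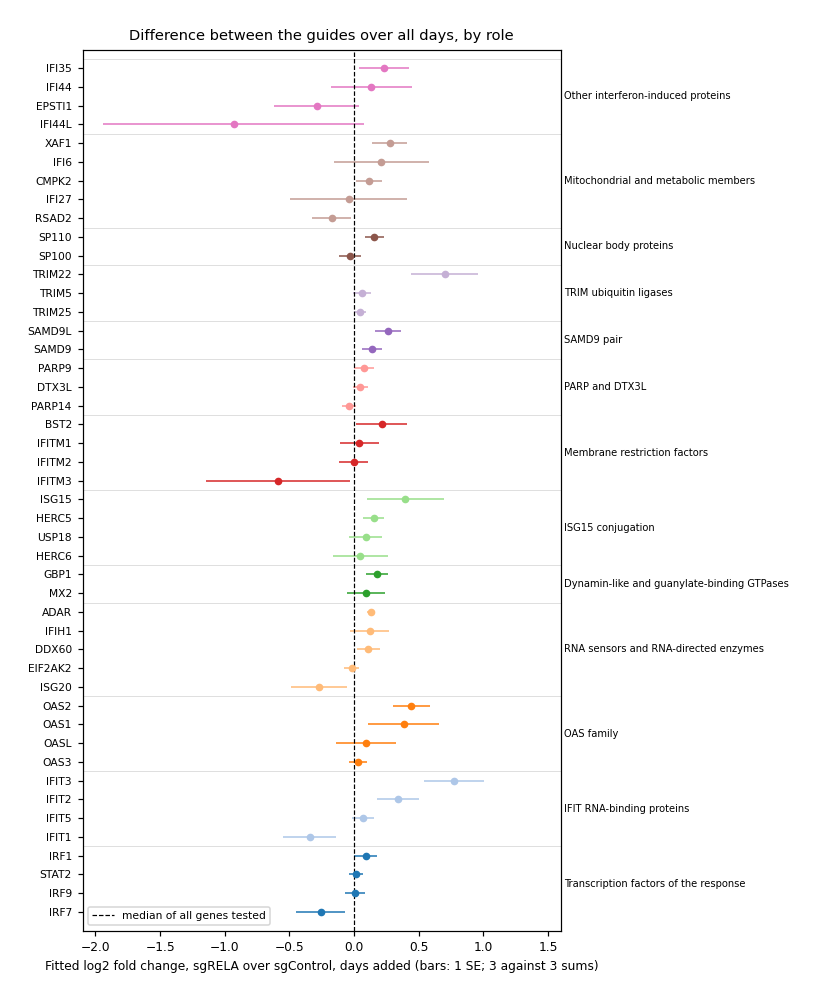
Fitted log2 fold change of sgRELA over sgControl with counts added over the days (horizontal, bars 1 SE, 3 sums against 3) for the 46 tested members, grouped by role. The dashed line is the median of all genes tested, 34 members lie above 0, and none passed the test.

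ADAR had the smallest p of the members. Its level was 880.1, 1041 and 1014 CPM on day 5, 873, 894 and 959 on day 6 and 1039, 1065 and 1067 on day 7 in sgControl, and 1103, 1110.2 and 1082 CPM on day 5, 1008, 994 and 995 on day 6 and 1167, 1096 and 1091 on day 7 in sgRELA. All sgRELA samples were above all sgControl samples on each single day, and over all days the log2 fold change was 0.13 ± 0.03 (adjusted p = 0.133). IFIT3, which binds and stabilises IFIT1 on foreign RNA, read 3.16, 2.697 and 0.906 CPM on day 5, 2.01, 4.199 and 1.64 on day 6 and 0.828, 0.171 and 2.88 on day 7 in sgControl, and 1.46, 1.32 and 3.09 CPM on day 5, 3.598, 5.28 and 4.02 on day 6 and 5.68, 3.57 and 3.78 on day 7 in sgRELA. The groups overlapped on days 5 and 6 and were apart on day 7, where the log2 fold change was 1.74 ± 0.61 (adjusted p = 0.924). Over all days it was 0.77 ± 0.23 (adjusted p = 0.296), at a mean of 2.79 CPM.

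OAS2, a synthetase of 2′-5′ oligoadenylate, the second messenger that activates RNase L, read 12.8, 10.7 and 8.16 CPM on day 5, 10.4, 13.7 and 10.3 on day 6 and 9.77, 6.42 and 6.04 on day 7 in sgControl, and 11.3, 8.24 and 14.2 CPM on day 5, 17.9, 12.98 and 12.96 on day 6 and 10.8, 14.1 and 17.1 on day 7 in sgRELA. On day 7 the groups were apart and the log2 value was 0.92 ± 0.26 (adjusted p = 0.474). Over all days it was 0.44 ± 0.14 (adjusted p = 0.391). TRIM22, a ubiquitin ligase with antiviral activity, read 0.570, 2.65 and 2.07 CPM on day 5, 3.33, 4.06 and 2.44 on day 6 and 2.65, 5.48 and 1.42 on day 7 in sgControl, and 2.47, 1.56 and 4.401 CPM on day 5, 2.54, 5.91 and 7.42 on day 6 and 7.57, 4.304 and 4.32 on day 7 in sgRELA. Its samples overlapped on every day and the value over all days was 0.70 ± 0.26 (adjusted p = 0.545). SAMD9L, a cytoplasmic antiviral and growth-restraining protein, gave 0.26 ± 0.10 (adjusted p = 0.577), and SP110, a nuclear body protein, 0.16 ± 0.07 (adjusted p = 0.721).

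On days 5 and 6 the smallest p belonged to other members. DTX3L, a ubiquitin ligase that works with PARP9, was higher in all sgRELA samples of day 5, by 0.43 ± 0.11 (adjusted p = 0.187), and lower in all of day 7, with -0.19 ± 0.11 (adjusted p = 1). The test of the change with the day gave DTX3L an unadjusted p of 0.000978 and an adjusted p of 0.905. On day 6 the leading members were IFIH1, the MDA5 sensor of long double-stranded RNA, with 0.67 ± 0.26 (adjusted p = 0.634), and OAS1 with 1.12 ± 0.46 (adjusted p = 0.7). IRF1, a transcription factor that NF-kB is known to activate, stood at 0.35 ± 0.16 (adjusted p = 0.761) on day 6, -0.01 ± 0.16 on day 5 and -0.01 ± 0.15 on day 7. The counts of members whose 3 sgRELA samples all lay above the 3 sgControl samples were 4, 7 and 8 on days 5, 6 and 7 (all genes 5.85%, 5.91% and 5.24%), and 1, 1 and 4 lay below (5.17%, 5.39% and 5.2%). Over all days 7 lay above (6.34%), namely ADAR, IFIT3, OAS2, SP110, HERC5, DDX60 and TRIM25, and IRF7 alone lay below (5.94%).

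The second question was how the members moved between the days within each guide. Of the 46 members, 21 passed in at least 1 of the 6 comparisons of days and 25 in none. The share of all genes passing in at least 1 of the 6 was not counted, so the 21 have no reference. In sgControl cells 6 members passed from day 5 to day 6, where 8.87% of all genes did, 3 higher (all genes 3.29%) and 3 lower (5.58%). From day 6 to day 7 it was 15 members against 14.6% of all genes, 9 higher (8.25%) and 6 lower (6.31%). From day 5 to day 7 it was 8 members against 13%, 6 higher (6.65%) and 2 lower (6.36%). In sgRELA cells 9 members passed from day 5 to day 6 against 6.91% of all genes, 6 higher (2.57%) and 3 lower (4.34%). From day 6 to day 7 it was 10 members against 12.2%, 4 higher (7.21%) and 6 lower (5.02%). From day 5 to day 7 it was 6 members against 12.4%, 5 higher (6.35%) and 1 lower (6.06%). These shares are set side by side with no test of their difference. Of the 13 T-lineage markers, 5 rose and 1 fell from day 5 to day 7 in sgControl, and 5 rose and 0 fell in sgRELA. CD3G, CD3D, TRBC1, LCK and ZAP70 rose in both guides, CD3G by 0.82 ± 0.08 (adjusted p = 5.38e-09) in sgControl and 0.87 ± 0.08 (adjusted p = 1.62e-09) in sgRELA. CD247 fell in sgControl, with -0.34 ± 0.11 (adjusted p = 0.0379) there and -0.23 ± 0.11 (adjusted p = 0.202) in sgRELA, and CD3E gave -0.14 ± 0.08 (adjusted p = 0.312) and -0.23 ± 0.08 (adjusted p = 0.0691). The part of these markers in the members' changes was not tested. In bulk RNA, fewer cells that express a gene and less RNA per cell cannot be told apart.

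The guides have separate samples, and their calls are set side by side here. Both guides were fitted in the same model over all groups, which shares its estimate of each gene's spread between them. They also share the days of harvest, so calls in both guides are not independent of each other. From day 5 to day 6, 5 members passed in both guides (83.3% of the sgControl calls and 55.6% of the sgRELA calls), namely CMPK2, GBP1, STAT2, TRIM25 and TRIM5. From day 6 to day 7, 8 passed in both (53.3% and 80% of the calls): CMPK2, EIF2AK2, IRF9, OAS3, SAMD9L, STAT2, TRIM25 and TRIM5. Over both steps 4 passed in both (50% and 66.7%): EIF2AK2, GBP1, IRF1 and OAS3. Each of these had the same sign in both guides. Overlap and sign were not counted over all genes, so these shares describe the list and do not set it apart. The median log2 fold change of the members was 0.13 in sgControl and 0.31 in sgRELA from day 5 to day 6 (all genes 0.04 and 0.03), and -0.04 and -0.07 from day 6 to day 7 (all genes -0.07 and -0.06). Scaling by library totals alone moved the median of all genes in sgControl to 0.12 and -0.17 for these steps, and the member calls in sgControl to 5 higher and 3 lower and to 5 higher and 6 lower. The share of all genes' calls that were higher moved from 37.1% to 55.5% and from 56.7% to 40.3% there. In sgRELA that share moved from 37.2% to 49.1% and from 59% to 44.6%, with member calls of 7 higher and 2 lower and of 4 higher and 7 lower.

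**Figure D4:**
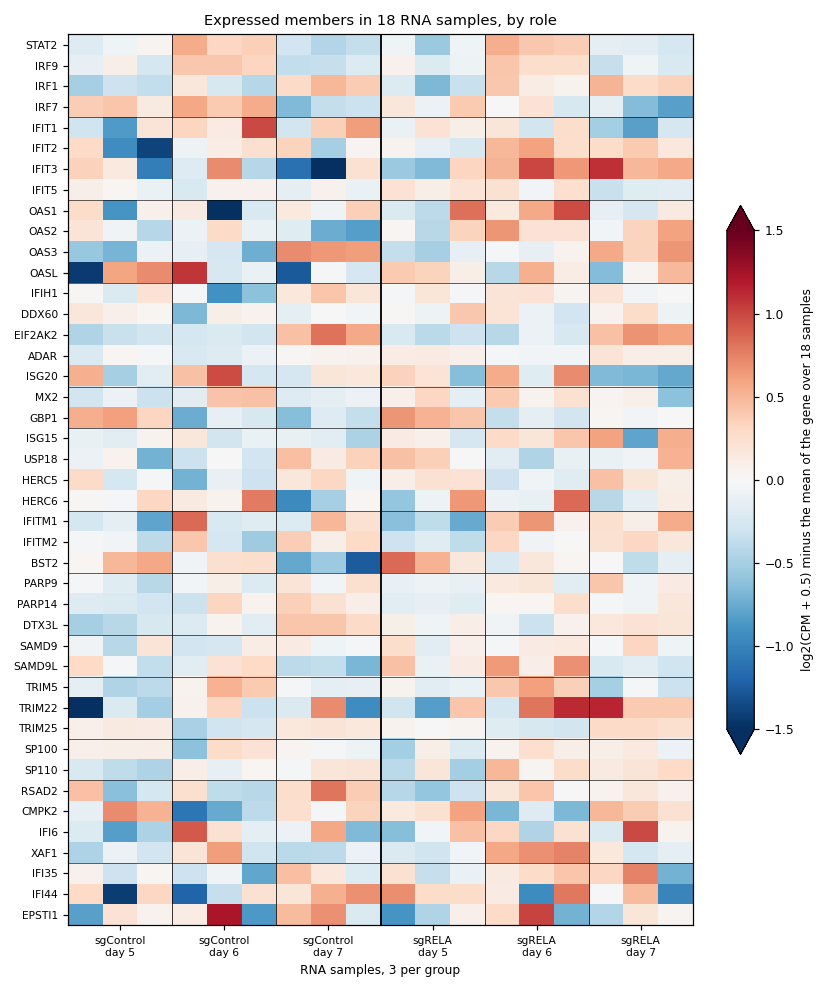
Colour gives log2(CPM + 0.5) of each of the 43 expressed members (rows, by role) minus its mean over the 18 RNA samples (columns, 3 per group), with a heavy line between the guides. STAT2, IRF9 and TRIM5 are red on day 6, EIF2AK2 and OAS3 on day 7, and GBP1 on day 5, in both guides.

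Of the 54 calls between days, 13 were kept in every alternative and in every fit without 1 RNA sample, 16 were lost only when 1 of the 2 libraries of each RNA sample was used, and 25 were lost in at least 1 fit without 1 RNA sample. The 13 were EIF2AK2 in both steps that end on day 7 in each guide, STAT2 from day 6 to day 7 in each guide and from day 5 to day 6 in sgRELA, IRF9 from day 6 to day 7 and DTX3L, IRF1 and OAS3 from day 5 to day 7 in sgControl, and TRIM5 and TRIM25 from day 6 to day 7 in sgRELA. The course of 12 members over the days is plotted, and the roles are taken in turn below.

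**Figure D5:**
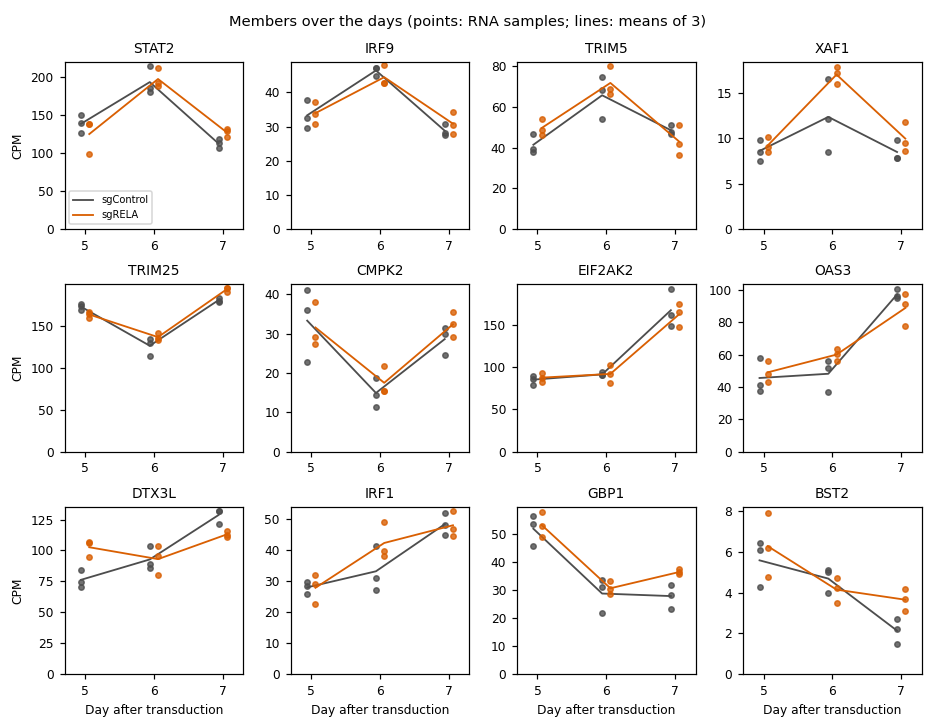
CPM (vertical, from 0) of 12 members on days 5, 6 and 7 (horizontal), points for RNA samples and lines through the means of 3, sgControl in grey and sgRELA in orange. STAT2, IRF9 and TRIM5 peak on day 6, TRIM25 and CMPK2 are lowest on day 6, EIF2AK2, OAS3 and IRF1 are highest on day 7, and GBP1 is highest on day 5.

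Among the transcription factors of the response, STAT2 and IRF9, both subunits of ISGF3, were highest on day 6. STAT2 read 127, 139 and 150.02 CPM on day 5, 215, 180.4 and 187 on day 6 and 119, 107 and 113 on day 7 in sgControl, and 138, 98.9 and 139 CPM on day 5, 212, 193 and 188 on day 6 and 132, 129.9 and 121 on day 7 in sgRELA. The day 6 samples lay above all others of their guide. STAT2 rose from day 5 to day 6 by 0.48 ± 0.11 (adjusted p = 0.00337) in sgControl and 0.66 ± 0.11 (adjusted p = 0.000122) in sgRELA, and fell from day 6 to day 7 by 0.78 and 0.63 on the log2 scale (adjusted p = 2.45e-06 and 7.05e-05). IRF9 read 32.6, 37.8 and 29.5 CPM on day 5, 47.1, 47.3 and 44.8 on day 6 and 27.5, 28.03 and 30.9 on day 7 in sgControl, and 37.2, 30.8 and 33.7 CPM on day 5, 47.9, 42.7 and 42.7 on day 6 and 27.9, 34.2 and 30.4 on day 7 in sgRELA. Its day 6 samples were likewise the highest of each guide. Its fall from day 6 to day 7 passed in both guides, -0.69 ± 0.14 (adjusted p = 0.000401) and -0.53 ± 0.13 (adjusted p = 0.00727), and its rise from day 5 passed in sgControl (0.48 ± 0.13, adjusted p = 0.0211) and not in sgRELA (0.39 ± 0.13, adjusted p = 0.0796). The IRF9 call from day 5 to day 6 in sgControl was lost in 4 of 6 fits without 1 RNA sample (adjusted p up to 0.134). The IRF9 call from day 6 to day 7 in sgRELA was lost without sgRELA day 6 replicate 1 or without sgRELA day 7 replicate 1 (adjusted p up to 0.0596). Another annotated gene, AL136295.5, on the same strand covers 48.4% of the exon bases of IRF9 in GENCODE v29, so reads of the pair may be shared.

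IRF1, which is itself induced by interferon gamma, took another course. It read 25.9, 29.6 and 28.4 CPM on day 5, 41.2, 31 and 27.2 on day 6 and 44.9, 51.9 and 48.04 on day 7 in sgControl, and 31.8, 22.7 and 28.9 CPM on day 5, 48.9, 39.6 and 38.2 on day 6 and 52.5, 44.6 and 46.8 on day 7 in sgRELA. All day 7 samples were above all day 5 samples of the same guide. The log2 fold change from day 5 to day 7 was 0.79 ± 0.16 (adjusted p = 0.000593) in sgControl and 0.79 ± 0.16 (adjusted p = 0.000636) in sgRELA. The rise passed on the second step in sgControl (0.54 ± 0.15, adjusted p = 0.0141) and on the first in sgRELA (0.60 ± 0.16, adjusted p = 0.0133). In 3 of 6 fits without 1 RNA sample, the IRF1 call from day 6 to day 7 in sgControl was lost (adjusted p up to 0.103). The IRF1 call from day 5 to day 6 in sgRELA was lost without sgRELA day 5 replicate 2 or without sgRELA day 6 replicate 1 (adjusted p up to 0.117). Annotated genes on the opposite strand, C5orf56 and AC116366.3, cover 22.0% of the exon bases of IRF1. Without a stated strand setting their reads cannot be told apart from those of IRF1. IRF7, the master factor of interferon alpha genes, was low at 4.55 CPM and fell from day 6 to day 7 in sgControl by 1.06 on the log2 scale (adjusted p = 0.0222), with -0.58 ± 0.32 (adjusted p = 0.298) in sgRELA. The IRF7 call from day 6 to day 7 in sgControl was lost in 5 of 6 fits without 1 RNA sample (adjusted p up to 0.115).

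None of the 4 IFIT genes, whose proteins bind viral RNA ends, passed in any comparison of days. IFIT5, the highest of them, read 35.5, 33.96 and 31.1 CPM on day 5, 28.4, 34.7 and 34.8 on day 6 and 29.9, 35.01 and 30.9 on day 7 in sgControl, and 38.8, 35.6 and 38.4 CPM on day 5, 39.05, 32.4 and 39.8 on day 6 and 26.2, 29.3 and 29.9 on day 7 in sgRELA. The sgControl samples overlapped between all days, and in sgRELA day 7 lay below days 5 and 6. The lowest p came from day 5 to day 7 in sgRELA, -0.40 ± 0.14 (adjusted p = 0.0524). IFIT1 ranged from 2.83 to 11.4 CPM, IFIT2 from 3.28 to 14.6 CPM and IFIT3 from 0.171 to 5.68 CPM over the 18 RNA samples.

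In the OAS family 1 of 4 members passed. OAS3, which makes oligoadenylates on long double-stranded RNA, read 41.4, 37.6 and 57.7 CPM on day 5, 56.2, 51.5 and 36.7 on day 6 and 100.3, 96.4 and 94.9 on day 7 in sgControl, and 47.7, 43.3 and 56.1 CPM on day 5, 60.4, 56.2 and 63.4 on day 6 and 91.6, 77.6 and 97.2 on day 7 in sgRELA. On day 7 every sample was above every sample of days 5 and 6 of its guide. OAS3 rose from day 5 to day 7 by 1.09 ± 0.15 (adjusted p = 3.84e-06) in sgControl and 0.86 ± 0.15 (adjusted p = 0.000126) in sgRELA, and from day 6 to day 7 by 1.01 ± 0.15 (adjusted p = 6.89e-06) and 0.57 ± 0.15 (adjusted p = 0.00852). The OAS3 call from day 6 to day 7 in sgRELA was lost without sgRELA day 7 replicate 3 (adjusted p up to 0.0535). OAS1 read 4.08, 1.55 and 3.496 CPM on day 5, 3.68, 0.849 and 2.75 on day 6 and 3.69, 3.17 and 4.34 on day 7 in sgControl, and 2.76, 2.399 and 6.22 CPM on day 5, 3.69, 5.15 and 7.003 on day 6 and 2.995, 2.68 and 3.65 on day 7 in sgRELA. These samples overlapped between most days, and neither OAS1 nor OAS2 nor OASL, a catalytically inactive relative, passed.

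Among the RNA sensors and RNA-directed enzymes, EIF2AK2 had the smallest p of the members between days. It encodes PKR, the kinase that halts translation when it binds double-stranded RNA. EIF2AK2 read 79.3, 86.2 and 90.03 CPM on day 5, 90.4, 93.6 and 90.2 on day 6 and 148, 192 and 162 on day 7 in sgControl, and 92.9, 82.1 and 87.6 CPM on day 5, 81.6, 102 and 91.98 on day 6 and 147, 174 and 165 on day 7 in sgRELA. Every day 7 sample stood above every sample of days 5 and 6 of its guide. Days 5 and 6 overlapped in sgRELA, and in sgControl day 6 lay just above day 5. The log2 fold change from day 5 to day 7 was 0.97 ± 0.11 (adjusted p = 8.77e-08) in sgControl and 0.89 ± 0.11 (adjusted p = 3.82e-07) in sgRELA, and from day 6 to day 7 0.87 ± 0.11 (adjusted p = 2.65e-07) and 0.82 ± 0.11 (adjusted p = 9.17e-07). Most of the rise therefore fell between day 6 and day 7, since the step from day 5 to day 6 was 0.10 ± 0.11 and 0.07 ± 0.11.

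ADAR rose from day 6 to day 7 in sgControl by 0.22 ± 0.06 (adjusted p = 0.0124), and in sgRELA the value was 0.16 ± 0.06 (adjusted p = 0.0859). The ADAR call from day 6 to day 7 in sgControl was lost without sgControl day 7 replicate 2 (adjusted p up to 0.0513). IFIH1 rose on the same step in sgControl, 0.78 ± 0.26 (adjusted p = 0.0398), at a mean of 8.26 CPM, and in sgRELA the value was -0.10 ± 0.26 (adjusted p = 0.894). In 5 of 6 fits without 1 RNA sample, the IFIH1 call from day 6 to day 7 in sgControl was lost (adjusted p up to 0.207). ISG20, an exonuclease for single-stranded RNA, fell from day 6 to day 7 in sgRELA by 1.29 on the log2 scale (adjusted p = 0.0362) at a mean of 3.98 CPM, and in sgControl the value was -0.48 ± 0.40 (adjusted p = 0.536). The ISG20 call from day 6 to day 7 in sgRELA was lost in 5 of 6 fits without 1 RNA sample (adjusted p up to 0.161). DDX60, a helicase linked to RNA sensing, read 33.3, 31.2 and 30.3 CPM on day 5, 18.3, 31.4 and 30.6 on day 6 and 26.6, 29.8 and 28.9 on day 7 in sgControl, and 29.99, 28.1 and 39.2 CPM on day 5, 34.3, 27.8 and 24.1 on day 6 and 30.7, 35.98 and 28.1 on day 7 in sgRELA. It did not pass in any comparison.

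GBP1, a guanylate-binding GTPase that is a classical target of interferon gamma, fell after day 5 in both guides. It read 53.6, 56.7 and 45.9 CPM on day 5, 21.8, 33.7 and 31.03 on day 6 and 23.4, 31.9 and 28.4 on day 7 in sgControl, and 58.1, 52.9 and 49.2 CPM on day 5, 28.6, 33.2 and 30.3 on day 6 and 37.4, 35.7 and 36.5 on day 7 in sgRELA. All day 5 samples were above all samples of days 6 and 7 of the same guide. The log2 fold change from day 5 to day 6 was -0.85 ± 0.15 (adjusted p = 0.000341) in sgControl and -0.80 ± 0.15 (adjusted p = 0.000758) in sgRELA, and from day 5 to day 7 -0.90 ± 0.15 (adjusted p = 9.27e-05) and -0.55 ± 0.15 (adjusted p = 0.0133). The GBP1 call from day 5 to day 7 in sgRELA was lost without sgRELA day 5 replicate 1 or without sgRELA day 7 replicate 2 (adjusted p up to 0.0721). On day 7 the sgRELA samples lay above the sgControl samples, with 0.39 ± 0.15 (adjusted p = 0.985) between the guides. MX2, a GTPase that restricts HIV-1, read 8.2, 9.42 and 7.898 CPM on day 5, 8.83, 13.6 and 13.8 on day 6 and 8.696, 9.03 and 9.36 on day 7 in sgControl, and 10.6, 12.6 and 9.01 CPM on day 5, 13.2, 10.4 and 11.8 on day 6 and 10.3, 10.6 and 6.33 on day 7 in sgRELA. No comparison of MX2 passed.

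The 4 members of ISG15 conjugation gave 1 call. HERC5, the ligase that attaches ISG15 to new proteins, read 40.3, 27.2 and 32.02 CPM on day 5, 19.9, 30.4 and 26.2 on day 6 and 37.02, 40.9 and 31.2 on day 7 in sgControl, and 35.2, 38.5 and 38.2 CPM on day 5, 26.3, 31.6 and 28.8 on day 6 and 44.7, 37.4 and 34.9 on day 7 in sgRELA. Its day 6 samples lay below all day 7 samples in both guides and below all day 5 samples in sgRELA, and the step from day 6 to day 7 was 0.51 ± 0.16 (adjusted p = 0.0331) in sgControl and 0.43 ± 0.16 (adjusted p = 0.0913) in sgRELA. In 4 of 6 fits without 1 RNA sample, the HERC5 call from day 6 to day 7 in sgControl was lost (adjusted p up to 0.163). USP18, the protease that removes ISG15 and dampens the receptor, ranged from 7.04 to 17.3 CPM. ISG15 itself ranged from 0.690 to 2.64 CPM, and HERC6, a relative of HERC5, from 4.10 to 15.6 CPM.

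Of the membrane restriction factors, IFITM1 rose in sgRELA and BST2 fell in sgControl. IFITM1, which limits virus entry at the cell surface, read 6.97, 7.68 and 4.704 CPM on day 5, 15.7, 7.19 and 7.45 on day 6 and 7.33, 12.2 and 10.03 on day 7 in sgControl, and 5.35, 6.398 and 4.85 CPM on day 5, 11.2, 13.7 and 8.88 on day 6 and 10.2, 9.096 and 12.7 on day 7 in sgRELA. In sgRELA the day 5 samples lay below all later ones, and IFITM1 rose by 1.03 ± 0.30 (adjusted p = 0.0316) to day 6 and 0.95 ± 0.30 (adjusted p = 0.033) to day 7. The IFITM1 call from day 5 to day 6 in sgRELA was lost in 5 of 6 fits without 1 RNA sample (adjusted p up to 0.161). In 4 of 6 fits without 1 RNA sample, the IFITM1 call from day 5 to day 7 in sgRELA was lost (adjusted p up to 0.146). In sgControl the values were 0.65 ± 0.30, adjusted p = 0.201 and 0.61 ± 0.30, adjusted p = 0.202. The neighbouring IFITM2 read 20.2, 20.02 and 15.6 CPM on day 5, 27.4, 17.2 and 14.1 on day 6 and 26.8, 21.9 and 25.5 on day 7 in sgControl, and 16.6, 18.2 and 15.7 CPM on day 5, 25.8, 19.9 and 20.5 on day 6 and 24.2, 25.7 and 23.3 on day 7 in sgRELA. It did not pass, and IFITM1 and IFITM2 share annotated exons, 32.5% of the exon bases of IFITM1, so their counts may not be separate. BST2, or tetherin, which holds budding virus at the membrane, was low at 4.42 CPM and fell in sgControl from day 5 to day 7 by 1.39 on the log2 scale (adjusted p = 0.0053). It also fell from day 6 by 1.14 (adjusted p = 0.0209). The BST2 call from day 6 to day 7 in sgControl was lost in 4 of 6 fits without 1 RNA sample (adjusted p up to 0.135). In sgRELA the day 5 to day 7 value was -0.78 ± 0.33 (adjusted p = 0.136) and the day 6 to day 7 value -0.18 ± 0.33 (adjusted p = 0.846).

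PARP14, PARP9 and DTX3L lie together on chromosome 3, at chr3:122680618-122730840, chr3:122527924-122564577 and chr3:122564238-122575203 of GRCh38, the last 2 head to head. DTX3L read 70.2, 74.5 and 83.99 CPM on day 5, 85.9, 103 and 88.8 on day 6 and 132, 132 and 121 on day 7 in sgControl, and 106, 94.98 and 107 CPM on day 5, 95.6, 79.7 and 104 on day 6 and 111, 116 and 113 on day 7 in sgRELA. In sgControl each day's samples were above those of the day before, and the rise was 0.76 ± 0.11 (adjusted p = 6.37e-06) from day 5 to day 7. In sgRELA days 5 and 6 overlapped and day 7 lay above both, and the same step was 0.14 ± 0.11 (adjusted p = 0.484). PARP14, a mono-ADP-ribosyltransferase, read 134, 132 and 126 CPM on day 5, 123.2, 193 and 159.7 on day 6 and 198, 180.1 and 165 on day 7 in sgControl, and 137, 142 and 136 CPM on day 5, 157, 158 and 185 on day 6 and 153, 148 and 174 on day 7 in sgRELA. It rose in sgControl from day 5 to day 7 by 0.47 ± 0.11 (adjusted p = 0.00447), and in sgRELA the value was 0.19 ± 0.11 (adjusted p = 0.321). PARP9, the partner of DTX3L, read 43.4, 38.8 and 32.8 CPM on day 5, 42.9, 46.6 and 37.99 on day 6 and 50.4, 42.7 and 52.2 on day 7 in sgControl, and 40.7, 41.5 and 40.8 CPM on day 5, 48.6, 49.99 and 39.4 on day 6 and 59, 42.5 and 47.7 on day 7 in sgRELA, and did not pass. No member passed the test of a guide difference that changes with the day.

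Of the SAMD9 pair, SAMD9L fell between days 6 and 7. It read 31.05, 24.6 and 19.2 CPM on day 5, 22.2, 29.3 and 30.9 on day 6 and 18.96, 19.3 and 15.4 on day 7 in sgControl, and 34.1, 23.4 and 27.3 CPM on day 5, 39.3, 26.9 and 40.6 on day 6 and 21.3, 22.3 and 20.3 on day 7 in sgRELA. It fell from day 6 to day 7 by 0.62 in sgControl and 0.74 in sgRELA on the log2 scale (adjusted p = 0.0267 and 0.00781). In 3 of 6 fits without 1 RNA sample, the SAMD9L call from day 6 to day 7 in sgControl was lost (adjusted p up to 0.135). The SAMD9L call from day 6 to day 7 in sgRELA was lost without sgRELA day 6 replicate 3 (adjusted p up to 0.0538). SAMD9 read 55.8, 43.1 and 66.2 CPM on day 5, 47.02, 48.5 and 62.4 on day 6 and 63.1, 55.2 and 56.7 on day 7 in sgControl, and 69.5, 51.7 and 60.6 CPM on day 5, 56.5, 62.7 and 63.8 on day 6 and 56.9, 72 and 55.3 on day 7 in sgRELA, and did not pass.

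The TRIM ubiquitin ligases TRIM25 and TRIM5 moved in opposite directions around day 6. TRIM25, which activates the sensor RIG-I, read 169, 176 and 174 CPM on day 5, 114, 130.2 and 135 on day 6 and 179, 184 and 179.8 on day 7 in sgControl, and 167, 159.6 and 165 CPM on day 5, 141, 136 and 133 on day 6 and 196, 196 and 190.5 on day 7 in sgRELA. Day 6 was the lowest day in both guides with no overlap. From day 6 to day 7 TRIM25 rose by 0.52 ± 0.08 (adjusted p = 1.70e-05) in sgControl and 0.50 ± 0.08 (adjusted p = 3.06e-05) in sgRELA, and from day 5 to day 6 it fell by 0.45 and 0.26 (adjusted p = 0.000326 and 0.0456). The TRIM25 call from day 5 to day 6 in sgRELA was lost in 6 of 6 fits without 1 RNA sample (adjusted p up to 0.17). Its rise over both steps in sgRELA was 0.24 ± 0.08 (adjusted p = 0.042). In 6 of 6 fits without 1 RNA sample, the TRIM25 call from day 5 to day 7 in sgRELA was lost (adjusted p up to 0.159).

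TRIM5, which recognises retroviral capsids, read 46.9, 37.98 and 39.3 CPM on day 5, 53.8, 74.7 and 68.4 on day 6 and 51.1, 46.8 and 47.6 on day 7 in sgControl, and 54.03, 46.1 and 48.6 CPM on day 5, 68.8, 79.8 and 66.4 on day 6 and 36.5, 50.9 and 41.5 on day 7 in sgRELA. Day 6 was its highest day in both guides. It rose from day 5 to day 6 by 0.67 ± 0.14 (adjusted p = 0.00172) in sgControl and 0.53 ± 0.14 (adjusted p = 0.0139) in sgRELA, and fell from day 6 to day 7 by 0.44 and 0.74 (adjusted p = 0.0288 and 0.000267). The TRIM5 call from day 6 to day 7 in sgControl was lost in 4 of 6 fits without 1 RNA sample (adjusted p up to 0.178). In 3 of 6 fits without 1 RNA sample, the TRIM5 call from day 5 to day 6 in sgRELA was lost (adjusted p up to 0.0985). TRIM22, its neighbour on chromosome 11, did not pass.

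Of the nuclear body proteins, SP110 read 36.2, 32.5 and 30.9 CPM on day 5, 45.6, 38.9 and 43.3 on day 6 and 42.2, 48.5 and 48.8 on day 7 in sgControl, and 32.1, 48.6 and 29.7 CPM on day 5, 60.3, 43.9 and 51.9 on day 6 and 46.8, 48.97 and 52.5 on day 7 in sgRELA. It rose from day 5 to day 7 in sgControl by 0.49 ± 0.15 (adjusted p = 0.0348) and from day 5 to day 6 in sgRELA by 0.50 ± 0.15 (adjusted p = 0.0447). The same steps gave 0.43 ± 0.15 (adjusted p = 0.0691) in sgRELA and 0.36 ± 0.16 (adjusted p = 0.165) in sgControl. The SP110 call from day 5 to day 7 in sgControl was lost in 4 of 6 fits without 1 RNA sample (adjusted p up to 0.126). In 4 of 6 fits without 1 RNA sample, the SP110 call from day 5 to day 6 in sgRELA was lost (adjusted p up to 0.258). Annotated genes on the opposite strand, AC009950.1 and SP140, cover 20.9% of the exon bases of SP110, so its reads are uncertain in the same way. SP100, a founding component of PML bodies, read 53.98, 54.6 and 54.9 CPM on day 5, 33.1, 61.9 and 59.7 on day 6 and 52.5, 50.4 and 48.4 on day 7 in sgControl, and 35.8, 54.5 and 44.4 CPM on day 5, 53.2, 60.9 and 54.4 on day 6 and 54.3, 56.9 and 47.9 on day 7 in sgRELA, and did not pass.

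Mitochondrial and metabolic members were led by CMPK2, a mitochondrial nucleoside monophosphate kinase. CMPK2 read 22.8, 41.04 and 36 CPM on day 5, 11.4, 14.5 and 18.8 on day 6 and 29.8, 24.5 and 31.5 on day 7 in sgControl, and 27.5, 29.1 and 38.1 CPM on day 5, 15.3, 21.7 and 15.4 on day 6 and 35.4, 32.6 and 29.1 on day 7 in sgRELA. Day 6 was its lowest day in both guides. It fell from day 5 to day 6 by 1.16 and 0.85 on the log2 scale (adjusted p = 0.000357 and 0.00814) and rose from day 6 to day 7 by 0.94 ± 0.21 (adjusted p = 0.00148) in sgControl and 0.89 ± 0.21 (adjusted p = 0.00299) in sgRELA. The CMPK2 call from day 5 to day 6 in sgRELA was lost in 3 of 6 fits without 1 RNA sample (adjusted p up to 0.0737). RSAD2, or viperin, whose gene is the divergent neighbour of CMPK2 on chromosome 2, ranged from 5.16 to 14.8 CPM and did not pass. XAF1, a pro-apoptotic protein, rose on day 6 in sgRELA by 0.88 ± 0.24 (adjusted p = 0.0186) and fell again by 0.77 (adjusted p = 0.0285). In sgControl the same steps gave 0.52 ± 0.24 (adjusted p = 0.199) and -0.54 ± 0.24 (adjusted p = 0.144), with the same signs. In 4 of 6 fits without 1 RNA sample, the XAF1 call from day 5 to day 6 in sgRELA was lost (adjusted p up to 0.0856). The XAF1 call from day 6 to day 7 in sgRELA was lost in 5 of 6 fits without 1 RNA sample (adjusted p up to 0.134). An annotated gene on the opposite strand, PRAL, covers 38.3% of its exon bases, and without a stated strand setting the reads cannot be told apart. IFI6 ranged from 0.366 to 2.56 CPM.

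The remaining members were IFI35, IFI44, IFI44L and EPSTI1, and none passed. IFI35, a leucine zipper protein, read 5.31, 3.98 and 5.18 CPM on day 5, 3.97, 4.87 and 2.75 on day 6 and 7.08, 5.69 and 4.34 on day 7 in sgControl, and 6.04, 3.88 and 4.71 CPM on day 5, 5.62, 6.22 and 6.898 on day 6 and 6.42, 8.81 and 2.89 on day 7 in sgRELA. IFI44 ranged from 0.183 to 2.67 CPM and EPSTI1 from 0.730 to 4.82 CPM.

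Summed over the 46 tested members, the level was 2256 ± 84.0 CPM on day 5, 2269.8 ± 93.5 on day 6 and 2577 ± 33.3 on day 7 in sgControl, and 2425 ± 44.6, 2479 ± 26.6 and 2647 ± 37.4 CPM in sgRELA (SD, n = 3). ADAR alone made up 40.0% to 45.3% of this sum in each group. Without ADAR the sum was 1278 ± 10.3, 1361 ± 73.2 and 1520.1 ± 31.1 CPM in sgControl and 1326 ± 53.5, 1480 ± 20.3 and 1529 ± 12.9 CPM in sgRELA. These sums describe the set, weigh its few abundant members most, and carry no test.

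Genes around the response were taken from lists of pathway genes. Of 21 interferon ligands, 14 had no count in any of the 36 libraries, among them IFNG and most interferon alpha genes. IFNB1, which encodes interferon beta, had 75 counts in 9 libraries, and IFNK 168 counts in 19 libraries. IFNK was the only ligand tested on single days and did not pass, and over all days IFNB1 gave -0.66 ± 1.06 (adjusted p = 0.968). All 6 receptor genes were tested, and none passed between the guides. Both subunits of the type I receptor were present, with a mean of 92.1 CPM for IFNAR1 and 93.0 CPM for IFNAR2. IFNGR1, the ligand-binding subunit for interferon gamma, fell from day 5 to day 7 by 0.65 in sgControl and 0.99 in sgRELA on the log2 scale (adjusted p = 0.0012 and 4.46e-06). IL10RB, shared by interferon lambda and IL-10 receptors, fell by 0.71 in both guides (adjusted p = 0.00601 and 0.00605), and IFNAR2 fell in sgRELA by 0.40 (adjusted p = 0.00702), with -0.27 ± 0.10 (adjusted p = 0.0802) in sgControl.

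Of 9 signalling genes 8 were tested, with SOCS1 left out at 77 counts, and none passed between the guides. PTPN11, a phosphatase of the pathway, rose from day 6 to day 7 by 0.29 ± 0.09 (adjusted p = 0.0317) in sgControl and 0.30 ± 0.09 (adjusted p = 0.0308) in sgRELA. JAK1 fell on that step in sgRELA by 0.30 (adjusted p = 0.0279), with -0.21 ± 0.09 (adjusted p = 0.15) in sgControl. STAT3 fell from day 5 to day 7 in sgRELA by 0.28 (adjusted p = 0.0326), with -0.17 ± 0.09 (adjusted p = 0.246) in sgControl.

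Of 20 genes of nucleic acid sensing 16 were tested, and 0 passed between the guides. CGAS, TLR8, ZBP1 and SAMHD1 were too low, with 64, 39, 2 and 102 counts. TLR9, the endosomal sensor of CpG DNA, rose from day 5 to day 6 by 1.45 ± 0.34 (adjusted p = 0.00581) in sgControl and 1.56 ± 0.34 (adjusted p = 0.00323) in sgRELA. It fell again from day 6 to day 7 by 1.04 and 1.17 (adjusted p = 0.0348 and 0.0187). MAVS, the adaptor of RIG-I and MDA5, also rose to day 6, by 0.35 ± 0.09 (adjusted p = 0.011) and 0.34 ± 0.09 (adjusted p = 0.018), and IKBKE, a kinase for IRF3, rose from day 5 to day 7 by 0.48 ± 0.15 (adjusted p = 0.0263) and 0.58 ± 0.15 (adjusted p = 0.00645). STING1, the adaptor of cGAS, rose to day 6 in sgControl by 0.60 ± 0.15 (adjusted p = 0.00998), with 0.41 ± 0.15 (adjusted p = 0.113) in sgRELA. Of the 12 NF-kB subunits and feedback genes, 5 were called higher in sgRELA over all days and 0 lower. Over all genes tested, 70 of 28888 were called higher and 35 lower. The list holds the target RELA and, like the others, was chosen with earlier results of these data known. Besides RELA the genes called higher were TNFAIP3 (0.81 ± 0.06, adjusted p = 8.76e-08), NFKBIA (1.19 ± 0.12, adjusted p = 4.50e-06), RELB (2.12 ± 0.22, adjusted p = 7.48e-06) and LTB (3.62 ± 0.69, adjusted p = 0.0153). LTB had group means of 0.0575, 0.0801 and 0.0669 CPM in sgControl and 1.05, 0.774 and 0.716 CPM in sgRELA on days 5, 6 and 7. Its fold change therefore rests on a level near 0 in sgControl.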

How the data were processed

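RamDA-seq libraries of 18 Jurkat RNA samples, 2 per RNA, were read from the table of raw read counts per Ensembl gene that the authors deposited. The submitters' processing notes name cutadapt 1.18, STAR 2.7.9a and GRCh38. The counting tool, its annotation, its strand setting and its treatment of reads that map to several places are not given in the sources used here. The counts of the 2 libraries of each RNA sample were added, and filterByExpr (minimum count 10) kept 27553 genes. Groups were compared with edgeR 4.0.16 (R 4.3.3, limma 3.58.1), TMM scaling, 1 model over all 6 groups, the quasi-likelihood test and Benjamini-Hochberg adjustment over all genes tested. A member passed at an adjusted p under 0.05. A further fit added the counts of same-numbered samples over the 3 days (28888 genes). DESeq2 1.42.0, other scalings, no filter, single libraries, a replicate block and fits without 1 sample were the alternatives. The script was tested on simulated data. The labels do not say that replicates came from separate transductions, so p-values measure the spread between these samples, which may be technical. The limit for a count of 0 is 3 counts of the group total. The members and lists were chosen with earlier results of these data known. Members given in every sample were the 6 with the smallest p between the guides over all days, the 6 with the smallest p from day 5 to day 7 in each guide, and, for each role, the further member with the highest mean CPM; IRF9 was added after its values were seen.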

Additional observations from a re-analysis of the deposited data

Results flagged for a closer look

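In 18 searches, each of 1 measure in 1 of the 6 groups of 6 libraries, for a library far from the others, 2 passed. For 6 independent values chance gives about 1 in 20. These libraries come as 2 per RNA sample, so the rate here is not known. The summed level of the tested members without ADAR was 1188 CPM in library 2 of sgRELA day 5 replicate 2, where the others of the group lay between 1316 and 1375 CPM. ADAR read 1000.5 CPM in library 1 of sgControl day 6 replicate 3, where the others lay between 873 and 918 CPM.

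In 3 members the guides differed in opposite directions on days 5 and 7, with no overlap between the samples on either day. How many of all genes have this pattern was not counted, so the 3 are a description only. IFIT5 had a log2 fold change of sgRELA over sgControl of 0.17 on day 5 and -0.17 on day 7. For DTX3L the values were 0.43 and -0.19, and for TRIM25 they were -0.080 and 0.10. In edgeR's test of a guide difference that changes with the day, the unadjusted p was 0.147 for IFIT5, 0.000978 for DTX3L and 0.182 for TRIM25, and none passed after adjustment (DTX3L adjusted p = 0.905).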

How the results depend on the processing

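None of the 927 member values counted below changed direction. Scaling by library totals alone did reverse the balance of calls on some steps. From day 6 to day 7 in sgControl, member calls went from 9 higher and 6 lower to 5 higher and 6 lower. The share of all genes' calls that were higher went from 56.7% to 40.3% there. In sgRELA that share went from 59% to 44.6%, while member calls stayed mostly lower. The guide comparisons and the interaction gave 0 members in every alternative except DESeq2 on day 5, which gave 1. They also gave 0 in every fit without 1 RNA sample. With the first library of each RNA sample alone, the members called from day 5 to 6, 6 to 7 and 5 to 7 were 2, 4 and 4 in sgControl and 1, 4 and 1 in sgRELA. With the second alone they were 5 from day 5 to 6 and 6 from day 6 to 7 in sgRELA. DESeq2 called 10 members from day 5 to 7 in sgRELA. Fits without 1 RNA sample gave 5 to 6, 9 to 15 and 7 to 10 members in sgControl and 4 to 5, 7 to 9 and 3 to 6 in sgRELA, in the same order. The count was 9 without sgControl day 6 replicate 3 or without sgControl day 7 replicate 2, and 3 without sgRELA day 5 replicate 1. Over single members, 756 of 927 alternative values kept their direction and side of the threshold, 170 lost the call and 1 gained it. The 927 include members of the guide comparisons that were not called and so had no call to lose. Of the 54 calls, 13 were kept throughout. Same-numbered samples had correlations of their deviations between -0.11 and 0.06 over 15514 genes, so the numbers were not taken to pair samples. With the replicate block the counts were 6, 16 and 8 in sgControl, 7, 10 and 5 in sgRELA, and 0 between the guides. The SE over all days had a median of 0.21 for members at 1 to 10 CPM and 0.05 above 100 CPM; how much of it is depth and how much is spread between samples was not tested.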

Other observations

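Members with and without an ISRE core in their RefSeq window can be set side by side, as a description with no test. From day 5 to day 7 in sgControl, 6 of the 25 tested members with a core passed and 18 were higher, with a median log2 fold change of 0.34. Of the 13 without one, 2 passed and 6 were higher, with a median of -0.02. Over all genes tested on that step, 13% passed and 49.3% were higher. In sgRELA the medians on that step were 0.14 and 0.04, and 4 of 25 with a core and 2 of 13 without passed (all genes 12.4%). From day 5 to day 6 the order was the other way, with medians of 0.08 and 0.14 in sgControl and 0.17 and 0.36 in sgRELA. On that step 2 of 25 with a core and 4 of 13 without passed in sgControl (all genes 8.87%), and 3 and 6 in sgRELA (6.91%). From day 6 to day 7, 7 of 25 and 7 of 13 passed in sgControl (all genes 14.6%), and 4 and 6 in sgRELA (12.2%). The medians there were -0.03 and 0.12 in sgControl and -0.06 and -0.08 in sgRELA. Between the guides over all days the medians were 0.06 with a core and 0.11 without.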
